A study of Mus musculus with 2 samples.

Results

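Genes of neuropeptide signalling were followed through the non-haematopoietic cells of an aged mouse bladder: the peptide precursors Cck, Penk and Pnoc, and the peptide receptors Npy1r, Adcyap1r1, Avpr1a and Rxfp2. They are 7 of the 31054 features of the deposited matrices and were picked by symbol, because their levels in earlier looks at the same 2 libraries stood out in stromal cells or differed between libraries. Their levels, and the difference between libraries, are therefore descriptions of what was chosen, and carry no test.

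The cells came from the bladder of 1 male p16-CreERT2/R26-LSL-tdTomato mouse aged 25 months. Cre in this genotype is under p16 control and active only with tamoxifen, and it removes a stop before tdTomato at the Rosa26 locus, so the fluorescence is a lasting mark of cells in which the p16 driver was active around treatment. Tamoxifen was injected intraperitoneally on 5 days, and the bladder was taken 2 weeks later. Living cells (DAPI-) without the leukocyte antigen CD45 were split by the sorter into those with tdTomato (library Tom+) and those lacking it (library Tom-), so both libraries carry the same alleles and the same tamoxifen treatment. The sort was set against leukocytes, and nothing in it selected stroma. With 1 animal and 1 library per group there is no replicate check, no p-value can be given, and each interval below covers counting error only.

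Neuropeptides are cut out of longer precursors by proteases of the secretory pathway and act through G protein-coupled receptors at low concentrations. In the bladder they are best known from the nerve fibres that run through the wall, where neuropeptide Y, vasoactive intestinal peptide and enkephalins modulate muscle tone and blood flow. A transcript shows neither a secreted peptide nor a receptor at the surface.

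The 3 precursors are shown by the stretch of the coding sequence that holds their active peptide, since these are the products that a transcript count stands for. The stretches were read from GENCODE M21 transcripts (GRCm38), 5′ to 3′ on the transcript, with the peptide codons in capitals and the adjoining codons in lower case. Penk carries 7 enkephalin copies in 268 codons, and each of the 7 follows a pair of basic codons, the signal at which the precursor is cut. Copies 5 and 6 are given as examples of Met-enkephalin and Leu-enkephalin.
Cck: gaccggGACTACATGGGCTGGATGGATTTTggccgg
Penk copy 5: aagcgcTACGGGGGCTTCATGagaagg
Penk copy 6: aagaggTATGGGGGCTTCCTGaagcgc
Pnoc: aaaaggTTTGGGGGCTTCACCGGGgcccgg
In codon numbers of the precursor, the Cck stretch covers codons 96 to 103 of 115 with 1 cholecystokinin core, and the Pnoc stretch covers codons 141 to 146 of 212, the start of nociceptin. In GRCm38, Cck lies at chr9:121489824-121495694 (ENSMUSG00000032532), Penk at chr4:4133531-4138819 (ENSMUSG00000045573) and Pnoc at chr14:65400673-65425472 (ENSMUSG00000045731), each on the minus strand.

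The 4 receptor genes lie on the plus strand of GRCm38. Npy1r is at chr8:66697192-66706792 (ENSMUSG00000036437), Adcyap1r1 at chr6:55451978-55501451 (ENSMUSG00000029778), Avpr1a at chr10:122448499-122453452 (ENSMUSG00000020123) and Rxfp2 at chr5:150018675-150082184 (ENSMUSG00000053368). Each of the 7 is annotated as protein coding, and counts are per gene, so no exon or UTR is resolved. Avpr1a overlaps Gm48877, and Rxfp2 overlaps Gm42557, which are on the other strand and are features of their own. In the annotation Penk also overlaps A830012C17Rik on the other strand, and Rxfp2 also overlaps Gm42558 on the same strand. Neither of these is a feature of the matrices. RefSeq start-site windows (GRCm38.p6, 250 bases before to 50 after the start) matched 5 of the 7, namely Cck, Npy1r, Adcyap1r1, Avpr1a and Rxfp2. The windows of Cck (minus strand, chr9:121495645-121495944) and Avpr1a (plus strand, chr10:122448249-122448548) are shown because both genes were highest in the same stromal class, described below. Capitals mark the core of the cAMP-response element (TGACG, or CGTCA on the other strand) in both, and a TATAAA in Avpr1a.
Cck: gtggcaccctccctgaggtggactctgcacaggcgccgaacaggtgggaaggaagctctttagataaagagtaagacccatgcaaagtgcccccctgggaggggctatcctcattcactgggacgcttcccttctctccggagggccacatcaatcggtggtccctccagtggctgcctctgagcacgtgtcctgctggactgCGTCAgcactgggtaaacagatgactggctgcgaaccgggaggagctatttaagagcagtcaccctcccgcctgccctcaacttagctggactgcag
Avpr1a: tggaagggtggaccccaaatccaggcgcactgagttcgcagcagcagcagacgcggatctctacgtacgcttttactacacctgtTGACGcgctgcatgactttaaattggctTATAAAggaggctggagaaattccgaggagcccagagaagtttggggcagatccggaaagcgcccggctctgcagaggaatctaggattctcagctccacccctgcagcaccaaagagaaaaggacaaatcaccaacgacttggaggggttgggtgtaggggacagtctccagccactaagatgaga
All motifs were searched on both strands. The core is common, in 20.8% of 32851 such windows, and TATAAA is in 13.6%. The full site TGACGTCA, which contains the core, is in 1.79% of windows and in none of the 5 members' windows. TGANTCA, the AP-1 motif, is in 7.81% of windows and in Npy1r alone among the 5, at base -231. These matches are letters in a window, and binding was not measured.

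The Tom+ library held 2783 barcodes and 34455896 UMIs, and the Tom- library 13551 barcodes and 197232860 UMIs. Filters left 1881 Tom+ cells, at a median of 11579 UMIs, and 9886 Tom- cells, at 12773 UMIs. tdTomato stood at 1214 CPM in Tom+, against 37.4 CPM in Tom-, in the direction of the sort. Fibroblast-like cells were 783 in Tom+, against 4116 in Tom-, with median depths of 8246 and 11104 UMIs, and each of 10 fibroblast markers was above 10 CPM in both libraries. In these cells the erythroid markers summed to 47.1 CPM in Tom+, against 493 CPM in Tom-, and the 8 smooth muscle markers to 293 and 182 CPM. Of 8 neuron markers, Snap25 had 0 CPM in Tom+, against 0.0210 CPM in Tom-, while Stmn2 (150 and 189 CPM) and Uchl1 (58.1 and 70.5 CPM) made up most of the list's 215 CPM in Tom+, against 265 CPM in Tom-. The 8 Schwann markers summed to 4.20 CPM in Tom+, against 5.49 CPM in Tom-. The part of these other-cell transcripts in the results was not tested.

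The libraries shared 966 barcodes. Among fibroblast-like cells, 67 Tom+ and 112 Tom- cells had such a barcode. In 32 of the 67 Tom+ cells the barcode held more UMIs in Tom+ than in Tom-, and their tdTomato level was 1798 CPM, close to the 1785 CPM of Tom+ fibroblast-like cells with no shared barcode. In the other 35 the barcode held more UMIs in Tom-, and tdTomato stood at 118 CPM. The 112 Tom- cells each held more UMIs of their barcode in Tom-. Some of the results below are also given without shared barcodes.

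Fibroblast-like cells were grouped into 10 states, numbered 0 to 9, by clustering that left out the 7 genes and the lists of related genes used below. By leading genes they are 0 (Bglap2, Pex5l, Necab1), 1 (Cxcl14, Sostdc1, Dkk2), 2 (Dner, Kcnn3, Stc2), 3 (Apoe, Cxcl12, Lsamp), 4 (Fam167a, Tes, Efhd1), 5 (Ptprb, Sult1e1, Apod), 6 (Akr1c18, Prdm8, Edn1), 7 (Gm26917, Dnm3os, mt-Nd6), 8 (Cilp, Hmcn2, Sfrp4) and 9 (Cd74, Gatm, H2-Eb1). State 2 made up 28.4% of Tom+ cells against 12.4% of Tom- fibroblast-like cells, and state 1 made up 4.60% of Tom+ cells against 18.4% of Tom- cells. States 5 and 7 were shallow, with median depths of 1199 and 1832 UMIs in Tom+, against 2201 and 2397 UMIs in Tom-. Each of the 21 Tom+ cells of state 5 had a shared barcode with more UMIs in Tom-, and 88 of its 176 Tom- cells had a shared barcode. A further class, called Car3-high stromal after its leading gene, also carried 9 fibroblast markers but was kept apart because of Car3. It held 35 Tom+ and 1278 Tom- cells.

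In the class as a whole, Adcyap1r1 was higher in Tom+ fibroblast-like cells, Cck, Pnoc and Avpr1a were lower, and Penk and Npy1r lay between, by the size of 1.5 times used throughout for "higher" and "lower" on the scale with 1 CPM added. A gene counted as measured where it reached 10 CPM in at least 1 library and 20 UMIs over both, and Rxfp2 did not reach 10 CPM. Among the 8952 genes that met the minimum, 100 (1.12%) were higher in Tom+ while 75 (0.838%) were lower, and the median log2 ratio was 0.00. Since the members were chosen with these ratios known, nothing is read from 4 of 6 members lying beyond that size. The accounts below give each gene's values, first for precursors and then for receptors, and show which states and how many cells carry them.

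**Figure D1:**
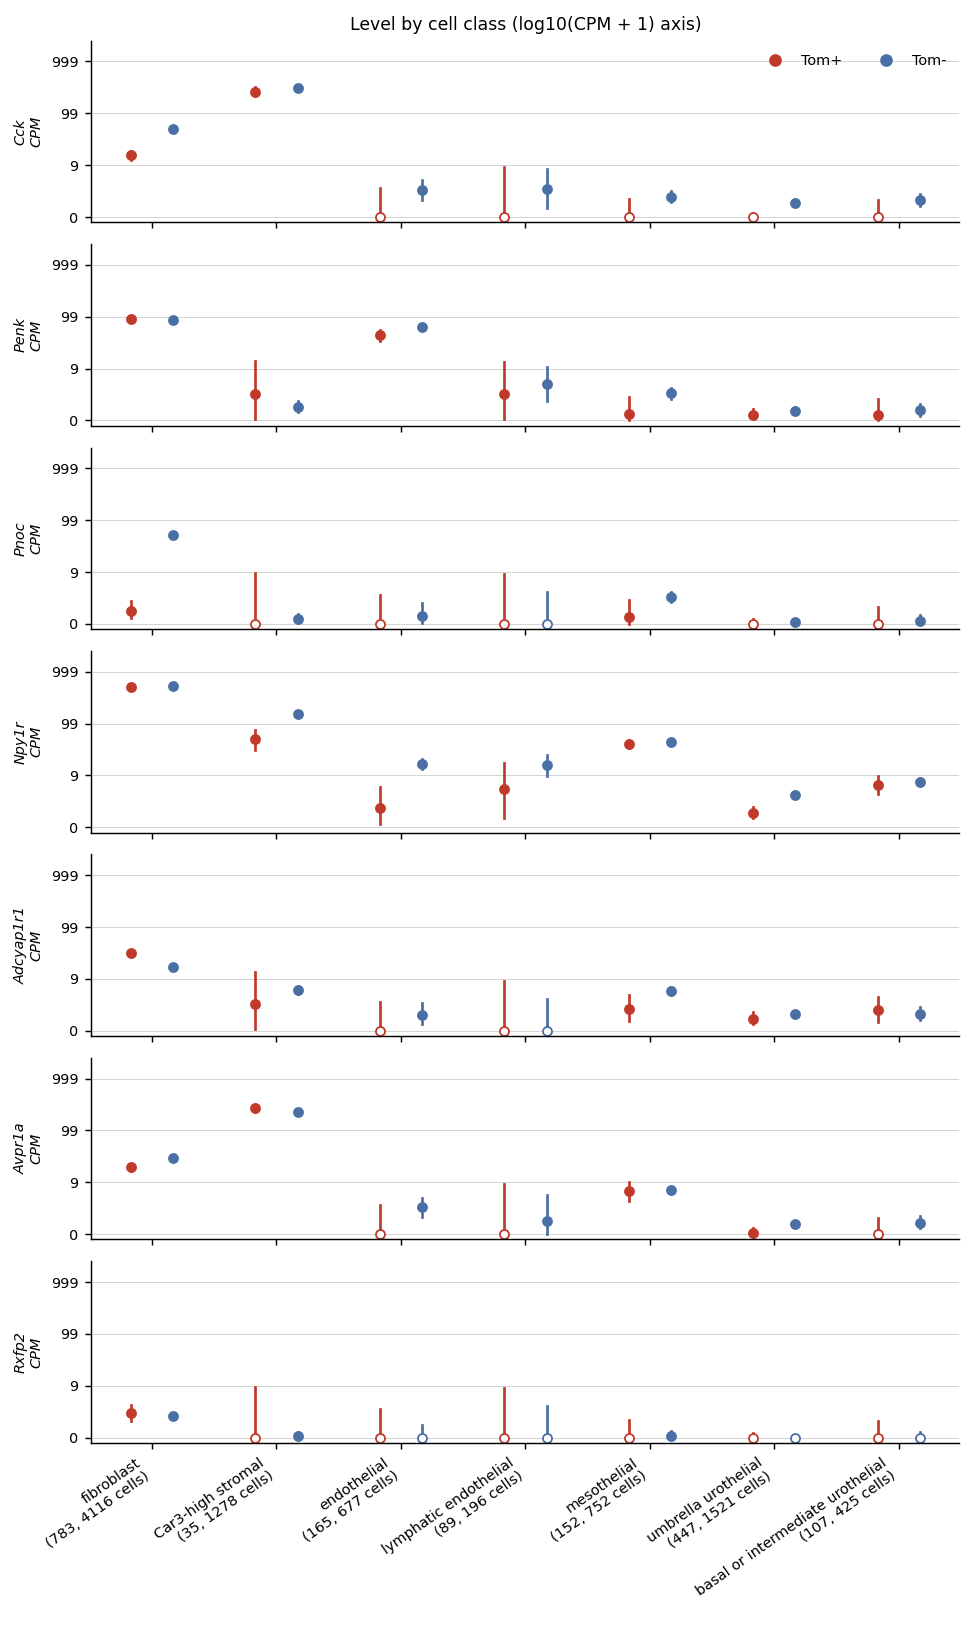
Levels of the 7 genes in 7 cell classes, Tom+ (red, left) and Tom- (blue, right), as CPM of the summed cells on a log10(CPM + 1) axis. Bars are exact Poisson 95% intervals and open circles are sums of 0 UMIs, and numbers of cells (Tom+, Tom-) stand under each class. Cck and Avpr1a are highest in the Car3-high stromal class, and Npy1r, Adcyap1r1 and Rxfp2 in the fibroblast-like class.

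Cck encodes cholecystokinin, a hormone of the gut lining and one of the abundant peptides of the brain. In the whole deposited matrices it had 237 UMIs in Tom+, against 8792 UMIs in Tom-. Most of its transcripts in the used cells lay in 2 stromal groups, the Car3-high class and fibroblast state 1. The Car3-high stromal cells had 113 UMIs (261 CPM, 95% interval 215 to 314) in Tom+, against 5512 UMIs (305 CPM, 297 to 313) in Tom-, and a Cck UMI was found in 74.3% and 76.1% of these cells. The ratio of Tom+ to Tom- was 0.856 with an interval of 0.704 to 1.03. In state 1, which shares Cxcl14 and Dkk2 with that class, Cck stood at 232 CPM (187 to 285) in Tom+, against 249 CPM (238 to 260) in Tom-, with a ratio of 0.931 (0.745 to 1.15). Without shared barcodes the Tom+ level in state 1 was 198 CPM, against 249 CPM in Tom-, and the ratio was 0.794 (0.619 to 1.005). These 3 ratio intervals included 1.

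Over all fibroblast-like cells the Cck level was 14.5 CPM (107 UMIs) in Tom+, against 48.2 CPM (2290 UMIs) in Tom-, and the ratio was 0.301 (0.245 to 0.365), or -1.67 on the log2 scale. State 1 held 84.1% of the class's Cck UMIs in Tom+, against 86.0% in Tom-, and it was the state that made up 4.60% of Tom+ cells, against 18.4% of Tom- cells. When the Tom- level of each state was combined with the Tom+ shares of the states, the class came to 18.5 CPM, nearer to the Tom+ than to the Tom- level. The mean of the log2 ratios over 8 states with at least 30 cells in each library was -0.30. Of these 8 log2 ratios, 7 were below 0 and 1 was above. The 1 above 0 was state 7 at 3.67, which rests on 1 Tom+ UMI against 0 in Tom- and raises the mean. State 0 had 13.2 CPM (13 UMIs) in Tom+, against 31.5 CPM (270 UMIs) in Tom-, and the ratio was 0.419 (0.2201 to 0.728). In that state 4.57% of all measured genes were higher in Tom+ and 4.98% lower. In states 2 to 9 Cck did not exceed 3.38 CPM in Tom+ or 5.59 CPM in Tom-, except for 1 UMI in Tom+ state 7 (11.7 CPM).

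Cck was low in umbrella urothelial-, endothelial- and mesothelial-like cells. The umbrella urothelial-like cells, a type not known to make the gene, held 0 UMIs in 447 Tom+ cells and 48 UMIs in 1521 Tom- cells (0.833 CPM). After each cell was thinned to 2000 UMIs, a Cck UMI was left in 2.41% of Tom+ cells against 7.17% of Tom- fibroblast-like cells. The same share was 0 of 443 Tom+ umbrella cells and 0.0693% of the Tom- ones. Endothelial-like cells held 0 Tom+ and 11 Tom- UMIs and mesothelial-like cells 0 and 24. Cck was higher in small Tom- classes that had at most 1 cell in Tom+. It stood at 41.4 CPM (31.7 to 53.1) in Tom- erythroid-like cells, where 13 of 67 cells held its 62 UMIs, and at 28.7 CPM (17.0 to 45.4) in Tom- pericyte-like cells, where 10 of 55 cells held 18 UMIs. The genes whose Tom- profile over 19 classes and states was most like that of Cck were Mab21l2 (Pearson r = 0.86), Cxcl14 (0.86) and Grik1 (0.84).

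Penk encodes proenkephalin, the source of the enkephalins, endogenous ligands of the delta and mu opioid receptors. The whole matrices held 819 Penk UMIs in Tom+, against 4906 in Tom-. Over fibroblast-like cells it differed little between the libraries, with 88.2 CPM (652 UMIs) in Tom+, against 84.3 CPM (4009 UMIs) in Tom-. The ratio was 1.05 (0.962 to 1.14), and 28.5% of Tom+ cells against 27.6% of Tom- cells held a UMI. Within the class it varied widely by state. State 5 had 610 CPM (349 to 991) in Tom+, against 1056 CPM (971 to 1147) in Tom-, but its 16 Tom+ UMIs come from the 21 cells whose barcodes held more UMIs in Tom-. State 8 had 312 CPM (280 to 347) in Tom+, against 281 CPM (268 to 294) in Tom-, and state 6 had 206 CPM (157 to 264) and 214 CPM (197 to 232). The intervals of states 8 and 6 did not overlap in either library.

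States 2 and 3 followed, with 75.1 and 83.2 CPM in Tom+, against 75.7 and 105 CPM in Tom-, and state 4 had 27.7 CPM in Tom+, against 29.0 CPM in Tom-. Penk was low in the states where Cck and Npy1r were high: state 0 had 5.07 CPM in Tom+, against 10.6 CPM in Tom-, and state 1 had 0 UMIs in 36 Tom+ cells and 3.29 CPM in Tom-. State 9 had 0 UMIs in 63 Tom+ cells and 3.64 CPM in Tom-. In state 8, where 11 Tom+ cells with shared barcodes each held more UMIs in Tom+, leaving shared barcodes out gave 376 CPM in Tom+, against 281 CPM in Tom-, and the ratio was 1.34 (1.18 to 1.51) in place of 1.11 (0.989 to 1.25). The Car3-high stromal cells held 1 Tom+ and 15 Tom- UMIs of Penk, in the class where Cck was highest. The most similar Tom- profiles were those of Msc (r = 0.90), Crispld1 (0.89) and Ifi207 (0.88).

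Among the other named classes Penk was highest in endothelial-like cells, at 42.6 CPM (32.6 to 54.8) in Tom+, against 62.5 CPM (55.7 to 70.0) in Tom-. A few cells carried most of it. Of 61 Tom+ UMIs, 42 lay in 5 of the 18 positive cells, and of 302 Tom- UMIs, 230 lay in 5 of the 51 positive cells. The ratio of 0.682 (0.509 to 0.900), or 0.770 (0.574 to 1.02) without shared barcodes, rests on those cells, and the interval does not cover how such cells happen to be sampled. The unnamed clusters, shallow cells given no type, had Penk at 76.9 CPM (11 UMIs) in Tom+, against 71.1 CPM (65 UMIs) in Tom-. In umbrella urothelial-like cells Penk stood at 0.2998 CPM in Tom+, against 0.555 CPM in Tom-.

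Pnoc encodes prepronociceptin, from which nociceptin is cut, the ligand of the opioid-like receptor Oprl1. Its class level was 0.812 CPM (6 UMIs) in Tom+, against 49.8 CPM (2369 UMIs) in Tom-, a log2 ratio of -4.81. This difference was carried by 11 Tom- cells. They were the only fibroblast-like cells with 10 or more Pnoc UMIs, held 2333 of the 2369 Tom- UMIs (98.5%), and reached 689 UMIs in 1 cell. Without them, a choice made after the values were seen, Pnoc stood at 0.812 CPM in Tom+, against 0.761 CPM in Tom-. The Tom+ value rests on 1 cell, which held 5 of the 6 UMIs and whose barcode was also found in Tom-, with 889 UMIs there. Without shared barcodes, and with the Pnoc-rich cells kept, Tom+ had 1 UMI (0.155 CPM), against 2368 UMIs (50.2 CPM) in Tom-. Such cells were 0 of 783 in Tom+, which allows a share of up to 0.383%, and 11 of 4116 in Tom-, a share of 0.267% (0.133 to 0.478). An absence of these cells from Tom+ was therefore not detectable at this number of cells.

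Of the 11 cells, 10 were in state 8 and 1 in state 9. In state 8 they were 0 of 103 Tom+ cells, which allows up to 2.91%, and 10 of 406 Tom- cells, 2.46% (1.19 to 4.48). None had a shared barcode, and their depths ran from 7720 to 43317 UMIs. Of the fibroblast markers, Pdgfra and Dcn were each in 11 of 11 cells, and in 3740 and 4105 of the other 4105 Tom- fibroblast-like cells. The smooth muscle marker Tagln was in 7 of the 11, at 2023 CPM over the summed cells against 55.5 CPM in the others. The 7 cells held 300, 125, 56, 39, 2, 1 and 1 Tagln UMIs, so a few cells carried most of it. Values for the other fibroblast, smooth muscle and pericyte markers in the 11 cells are not given here. Of the neuron markers, only Uchl1 was seen, with 2 UMIs, and no Schwann marker had a UMI.

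The genes most raised in these 11 cells over the other 4105 Tom- fibroblast-like cells, a description of cells picked by their Pnoc count, were led by Ren1, which encodes renin, at 25495 CPM against 1.65 CPM. Ren1 was present in 10 of the 11 cells. Of its 6604 UMIs there, 3757 lay in 1 cell and 1019 in another, and the lowest of the 10 held 33. Ren1 has a near-identical copy in some mouse strains, so the assignment of its reads is uncertain. Calb2 (calretinin, a calcium-binding protein), Chrdl2 and Nog (extracellular BMP antagonists) and Aqp5 (a water channel) followed. Calb2 had 537 UMIs in 6 of the 11 cells, against 40 UMIs in the other 4105, and single cells held 243, 193 and 89 of the 537. Nog was in 10 of the 11 cells and in 23 of the others. Pgr, the progesterone receptor, was in 10 of the 11 at 235 CPM, against 8.97 CPM in the others, and Esr1, the oestrogen receptor, in 7 at 189 CPM, against 12.8 CPM. The 11 cells held 1 UMI of Gdf10 and 2 UMIs of Penk, at 3.86 and 7.72 CPM, against 84.0 and 84.8 CPM in the other 4105. The most similar Tom- profiles, Calb2 (r = 0.90), Ren1 (0.88) and Chrdl2 (0.85), rest on the same cells.

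**Figure D2:**
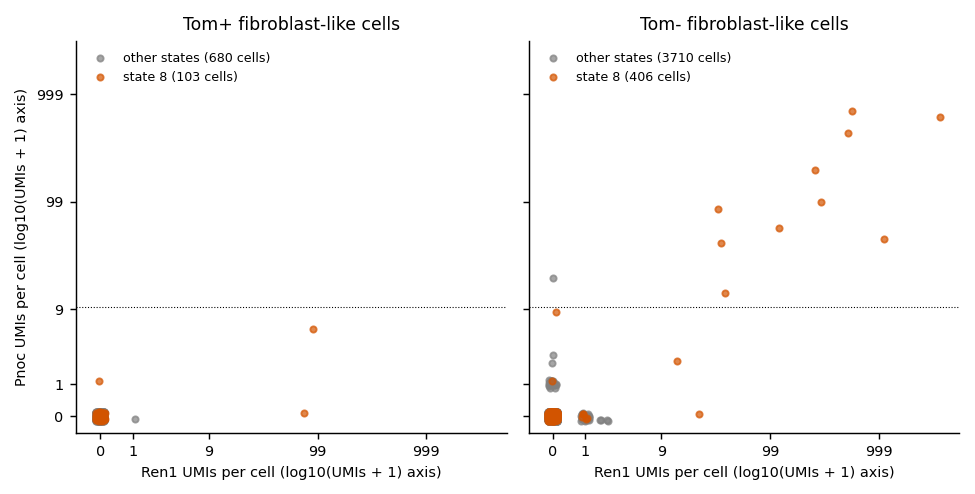
Pnoc and Ren1 UMIs in each Tom+ (left) and Tom- (right) fibroblast-like cell on log10(UMIs + 1) axes with a small jitter, state 8 in orange and the other states in grey. The dotted line marks 10 Pnoc UMIs. In Tom-, 10 of the 11 cells above the line also hold many Ren1 UMIs, and in Tom+ 2 state 8 cells hold Ren1 with 5 and 0 Pnoc UMIs.

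Cells with many Ren1 UMIs were found in both libraries. Fibroblast-like cells with 10 or more Ren1 UMIs were 2 of 783 in Tom+ (0.255%, 0.0309 to 0.920) and 12 of 4116 in Tom- (0.292%, 0.151 to 0.509), and each of these 14 was in state 8. The Tom+ pair had 82 and 69 Ren1 UMIs with 5 and 0 Pnoc UMIs, and 62 and 74 tdTomato UMIs. Their barcodes occurred in both libraries, with 43498 and 23340 UMIs in Tom+, against 889 and 548 UMIs in Tom-. Of the 12 Tom- cells, 10 had 10 or more Pnoc UMIs. A difference in Pnoc within cells of this kind cannot be drawn from 2 Tom+ cells. In mesothelial-like cells Pnoc had 1 UMI in Tom+, against 38 in Tom-, and 27 of the 38 lay in 1 cell.

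Npy1r encodes the Y1 receptor for neuropeptide Y and peptide YY, a receptor coupled to the inhibitory G protein that is known for the vasoconstrictor action of sympathetic nerves. It was broadly present in fibroblast-like cells, with 3732 UMIs (505 CPM, 489 to 521) in Tom+, against 25555 UMIs (538 CPM, 531 to 544) in Tom-. A UMI was found in 60.3% of Tom+ cells against 70.0% of Tom- cells, or 46.2% and 48.1% after thinning. Umbrella urothelial-like cells had 0 of 443 in Tom+, against 0.971% in Tom- after thinning. Over all barcodes the counts were 4026 UMIs in Tom+, against 32950 in Tom-. The class ratio was 0.939 (0.907 to 0.972), and it became 1.03 (0.993 to 1.07) without shared barcodes. Fibroblast-like cells held 95.4% of the library's Npy1r UMIs in Tom+, against 85.9% in Tom-.

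Across states Npy1r ran in a fixed order in the top 2 places. State 0 was highest, with 1338 CPM (1267 to 1412) in Tom+, against 1188 CPM (1166 to 1212) in Tom-, and 97.9% and 97.2% of its cells held a UMI. State 1 followed with 982 CPM (886 to 1086) and 772 CPM (753 to 792). States 2 and 3 had 597 and 658 CPM in Tom+, against 617 and 587 CPM in Tom- and their intervals overlapped in each library. State 4 had 426 CPM in Tom+, against 410 CPM in Tom-, and state 7 had 223 and 182 CPM. Far below lay state 6 (30.4 and 51.8 CPM), state 8 (31.9 and 42.9 CPM) and state 9 (2.22 and 14.3 CPM). The states with most Penk per UMI, 5, 6 and 8, were thus among those with least Npy1r. State 5 stood at 37.3 CPM in Tom-, and its 0 UMIs in 21 shallow Tom+ cells allow up to 114 CPM.

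The ratio of Tom+ to Tom- was not the same in all states. It was 1.13 (1.06 to 1.19) in state 0, 1.27 (1.14 to 1.41) in state 1 and 1.12 (1.01 to 1.24) in state 3, and 0.155 (0.0183 to 0.591) in state 9, where Tom+ had 2 UMIs and Tom- 51. The 3 ratios above 1 were also above 1 without shared barcodes (1.12, 1.29 and 1.15). The Tom- level of state 9, 14.3 CPM, was close to the 15.5 CPM of Tom- endothelial-like cells. In the Car3-high stromal class Npy1r stood at 48.5 CPM (21 UMIs) in Tom+, against 149 CPM (2700 UMIs) in Tom-, and the ratio was 0.325 (0.201 to 0.498) over 35 Tom+ cells. In that class 8.45% of all measured genes were higher in Tom+ and 11.4% lower, and in state 9 the shares were 4.71% and 8.41%. The summed erythroid markers were lower in Tom+ in each of the 10 states, for example 25.8 CPM in Tom+, against 401 CPM in Tom- in state 1. Their part in these ratios was not tested.

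Outside fibroblasts the highest Npy1r level was in 55 Tom- pericyte-like cells, at 433 CPM (383 to 487), with a UMI in 40 of the 55. These cells were led by Sncg, Lmod1 and Pln, and 1 Tom+ cell was in this class. Their 10 leading genes held the pericyte markers Rgs5 and Notch3 and also the smooth muscle marker Myh11. With each cell classed on its own by marker score, 44 Tom- cells were smooth muscle-like, with Npy1r at 423 CPM (232 UMIs). By the same score 17 Tom- cells were pericyte-like, with Npy1r at 315 CPM (39 UMIs). Pericytes and smooth muscle cells are thus not told apart in this class. Mesothelial-like cells had 39.7 CPM in Tom+, against 42.7 CPM in Tom-, and endothelial-like cells 1.40 CPM (2 UMIs) in Tom+, against 15.5 CPM (75 UMIs) in Tom-. The genes with the Tom- profile most like Npy1r were Zfyve28 (r = 0.91), Tbx20 (0.90), a T-box factor, and Gli1 (0.89), a Hedgehog pathway transcription factor.

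**Figure D3:**
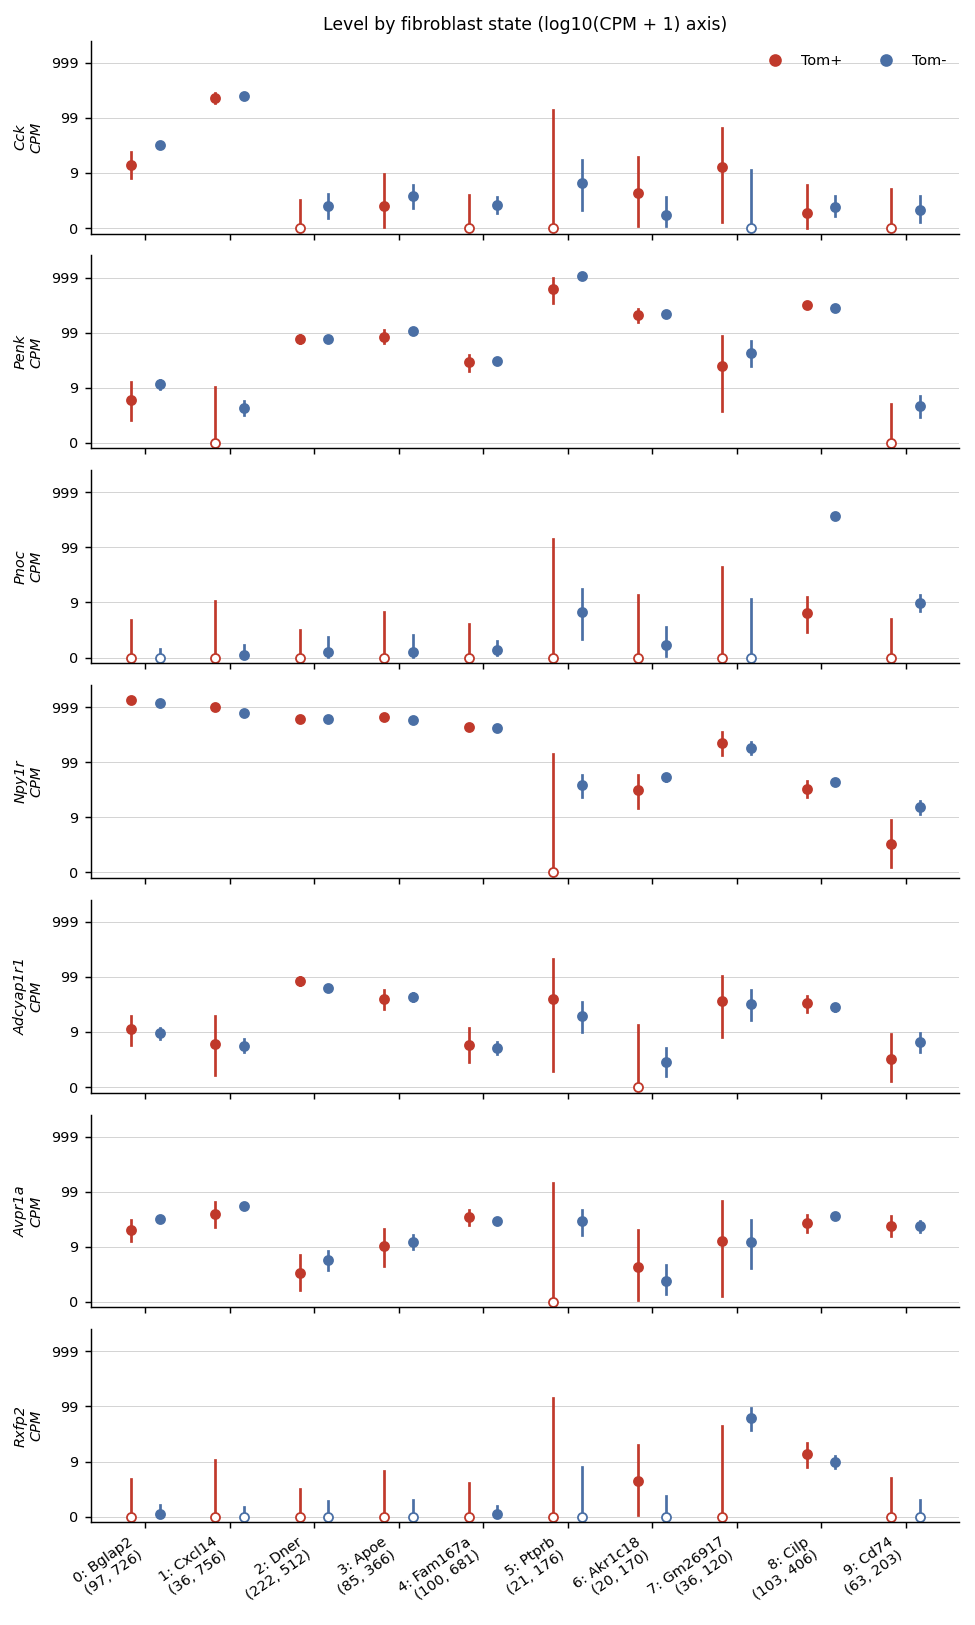
Levels of the 7 genes in the 10 fibroblast states, Tom+ (red, left) and Tom- (blue, right), as CPM of the summed cells on a log10(CPM + 1) axis with exact Poisson 95% intervals. States carry their first leading gene and the numbers of cells (Tom+, Tom-), and open circles are sums of 0 UMIs. Cck peaks in state 1, Penk in states 5, 6 and 8, Npy1r in state 0 and Adcyap1r1 in state 2, in both libraries. For state 5, each of the 21 Tom+ cells had a barcode with more UMIs in Tom-.

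Adcyap1r1 encodes PAC1, the receptor for the peptide PACAP, which raises cAMP through the stimulatory G protein. It was the member that was higher in Tom+, at 31.0 CPM (229 UMIs, 27.1 to 35.3) against 16.1 CPM (767 UMIs, 15.0 to 17.3) in Tom-. The ratio was 1.92 (1.65 to 2.23), or 2.11 (1.81 to 2.45) without shared barcodes, and the log2 ratio was 0.90. A UMI was found in 18.8% of Tom+ cells against 13.3% of Tom- cells, or 7.80% and 3.41% after thinning. Thinned umbrella urothelial-like cells had 0 of 443 in Tom+, against 0.347% in Tom-.

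Among states with at least 10 Adcyap1r1 UMIs in each library, Adcyap1r1 peaked in state 2, with 84.5 CPM (71.3 to 99.5) in Tom+, against 62.3 CPM (54.8 to 70.4) in Tom-, and next in state 3 with 38.5 and 42.5 CPM. State 8 had 31.9 CPM in Tom+, against 27.0 CPM in Tom-, which the intervals do not separate from state 3 in Tom+. State 2 alone held 62.9% of the class's Adcyap1r1 UMIs in Tom+, against 33.1% in Tom-, and it was the state that made up 28.4% of Tom+ cells, against 12.4% of Tom- cells. The Tom- state levels with the Tom+ shares came to 25.4 CPM, between the Tom+ level of 31.0 CPM and the Tom- level of 16.1 CPM. Within state 2 the ratio was 1.36 (1.10 to 1.67), and the mean log2 ratio over 8 states was 0.03. Of the 8 log2 ratios, 6 were above 0 and 2 below. The lowest was -1.04 in state 9, from 2 Tom+ and 20 Tom- UMIs. Outside state 2 each state's ratio interval included 1. State 2 is led by Dner, Kcnn3 and Stc2, and the Tom- profiles most like Adcyap1r1 were Matn2 (r = 0.88), Gng8 (0.87) and Pid1 (0.85). In mesothelial-like cells Adcyap1r1 had 5 UMIs in Tom+ (1.67 CPM) and 79 in Tom- (4.82 CPM).

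Avpr1a encodes the V1a vasopressin receptor, which acts through Gq and calcium. Like Cck it was highest in the Car3-high stromal class, at 268 CPM (116 UMIs, 222 to 322) in Tom+, against 229 CPM (4138 UMIs, 222 to 236) in Tom-. A UMI was found in 85.7% and 80.7% of these cells, and the ratio was 1.17 (0.965 to 1.41). This class held 42.3% of the library's Avpr1a UMIs in Tom+, against 72.4% in Tom-, and 50.9% and 68.9% of the Cck UMIs. Over fibroblast-like cells Avpr1a stood at 18.5 CPM (137 UMIs) in Tom+, against 28.5 CPM (1353 UMIs) in Tom-, and the ratio was 0.651 (0.542 to 0.777), or -0.59 on the log2 scale. That value lies just past the size of 1.5 times, and it fell within it at -0.48 with equal weight per cell, -0.52 with cells thinned, -0.54 with 5% free RNA taken off and -0.51 with 5 CPM added.

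No single state carried Avpr1a. In Tom- it ran from 53.8 CPM in state 1 through 35.2 in state 8, 30.9 in state 0, 28.3 in state 4, 27.9 in state 5 and 22.4 in state 9 to 1.44 in state 6. In Tom+ the order differed, with state 1 at 38.7, state 4 at 33.4, state 8 at 25.7, state 9 at 23.3 and state 0 at 19.3 CPM. The 21 Tom+ cells of state 5 held 0 UMIs, which allows up to 114 CPM, so state 5 cannot be placed in the Tom+ order. The Tom+ intervals of states 1, 4, 8, 9 and 0 overlapped. In state 0 the ratio was 0.624 (0.370 to 0.993), and in the other 7 states of the mean the interval included 1. The Tom- state levels with the Tom+ shares came to 22.1 CPM, between the Tom+ level of 18.5 CPM and the Tom- level of 28.5 CPM. Col12a1 (r = 0.91) and Vstm4 (0.85) were among the genes with the most similar Tom- profiles.

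Rxfp2 encodes the receptor for insulin-like peptide 3, known from the descent of the testis. It was rare, with 15 UMIs in 3 of 783 Tom+ fibroblast-like cells (2.03 CPM, 1.14 to 3.35) and 77 UMIs in 16 of 4116 Tom- cells (1.62 CPM, 1.28 to 2.02). The ratio of 1.25 had an interval of 0.669 to 2.20. In Tom-, 2 more UMIs were found in other classes, and in Tom+ none. State 8 held 14 of the 15 Tom+ UMIs and 54 of the 77 Tom- UMIs. The Rxfp2 cells were largely the Ren1 cells: 2 of the 3 Tom+ cells and 10 of the 16 Tom- cells had 10 or more Ren1 UMIs, and 8 of the 11 Pnoc-rich cells held Rxfp2, at 131 CPM against 0.910 CPM in the other Tom- fibroblast-like cells.

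Each of the 3 Tom+ Rxfp2 cells had a barcode found in both libraries, with 23340, 43498 and 26432 UMIs in Tom+, against 548, 889 and 583 UMIs in Tom-. Leaving out shared barcodes therefore left 0 UMIs in Tom+, against 77 in Tom-. Keeping each shared barcode in the library with more of its UMIs gave a log2 ratio of 0.22, against 0.21 with all barcodes. In Tom-, state 7 held 21 UMIs, and they lay in 1 cell with 4385 UMIs and 4 Pdgfra UMIs. The genes of most similar profile, Chrna1 (r = 0.97), Myod1 (0.96) and Gal (0.93), rest on state 7 and had 0 UMIs in that cell, so they were not found together with Rxfp2.

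**Figure D4:**
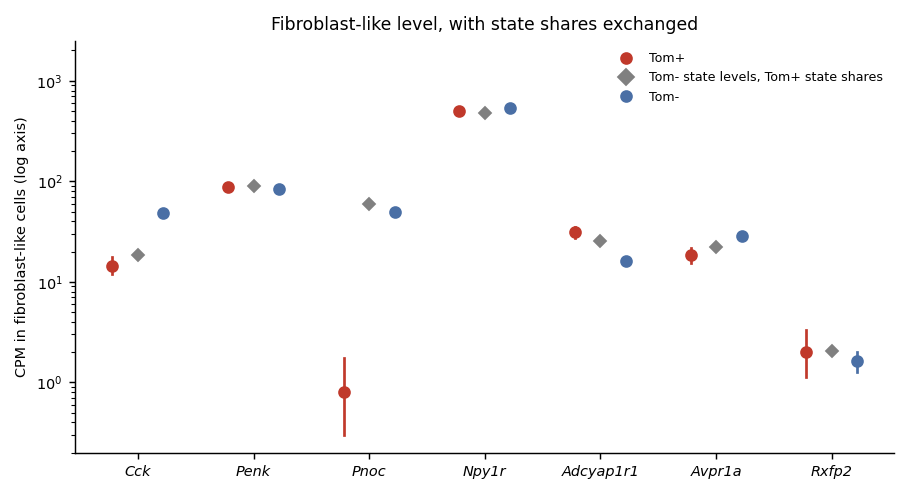
Fibroblast-like level of each gene in Tom+ (red, left) and Tom- (blue, right) with exact Poisson 95% intervals, and between them (grey diamonds) the Tom- level of each state weighted by the Tom+ state shares of UMIs, all in CPM on a log axis. For Cck the diamond lies at 18.5 CPM, near the Tom+ level of 14.5, and for Pnoc at 58.9 CPM, near the Tom- level of 49.8.

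When each cell was classed on its own by its marker score, 918 Tom+ and 5698 Tom- cells were fibroblast-like, and they held 222 Cck UMIs in Tom+, against 7817 in Tom-. Cck then stood at 24.2 CPM in Tom+, against 110 CPM in Tom-, and Avpr1a at 27.9 and 77.6 CPM, with a ratio for Avpr1a of 0.360 (0.316 to 0.408). Adcyap1r1 stood at 26.1 CPM in Tom+, against 13.1 CPM in Tom-, and Npy1r at 416 and 399.7 CPM. The direction of Npy1r was the only one of the 7 that turned.

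The members did not share cells to the same degree. Among 3935 thinned Tom- fibroblast-like cells, Penk was found in 1.06% of the 282 cells with a Cck UMI and in 12.4% of the cells without one. Npy1r was found in 25.0% of the 456 cells with Penk and in 51.1% of those without. Avpr1a was found in 12.8% of cells with Cck and in 4.76% of those without. In Tom+ the same pairs stood at 5.88% and 13.2% for Penk by Cck, with 17 Cck cells, and at 26.1% and 49.3% for Npy1r by Penk, with 92 Penk cells. Avpr1a by Cck stood at 5.88% in Tom+, which is 1 of the 17 cells, and 3.78%. In Tom- Car3-high stromal cells, Avpr1a was found in 35.6% of the 464 cells with Cck and in 31.2% of those without. In the Tom+ cells of that class, Cck was found in 23.1% of the 13 cells with Avpr1a and in 30.0% of those without. Over the 19 Tom- classes and states Cck correlated with Avpr1a at r = 0.70 and with Penk at r = -0.38. These points share 1 library and its free RNA, so the values describe and carry no test.

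The partners of the members were mostly below the minimum. Of 9 genes for ligands of the 4 receptors, none met it in fibroblast-like cells and 6 had no UMI there. Npy, the ligand of the Y1 receptor, had 34 UMIs (4.60 CPM) in Tom+, against 112 UMIs (2.36 CPM) in Tom-, with its highest class level in Tom- lymphatic endothelial-like cells (20.8 CPM). Adcyap1, which encodes PACAP, had 0 UMIs in Tom+, against 2 in Tom- over all used cells, and Insl3 had 5 and 6. Of 8 receptors for the peptides, 2 were measured and neither was past 1.5 times. These were Ackr3, an atypical receptor that scavenges chemokines and opioid peptides, at 175 CPM in Tom+, against 190 CPM in Tom-, and Ogfr, the opioid growth factor receptor, at 25.3 and 27.9 CPM. The classical opioid receptor genes Oprd1, Oprk1 and Oprm1 had no UMI in fibroblast-like cells, and Oprk1 was seen in umbrella urothelial-like cells at 3.78 CPM in Tom-. None of 12 close relatives of the member receptors was measured.

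Among other peptide systems, 2 of 55 ligand genes were measured. Nxph1, which encodes the secreted neurexin ligand neurexophilin, was higher at 21.9 CPM in Tom+, against 12.2 CPM in Tom-, and the ratio was 1.7998 (1.503 to 2.15). Adm, adrenomedullin, was between at 36.3 CPM in Tom+, against 39.0 CPM in Tom-. Of 61 other receptor genes 8 were measured, with a median log2 ratio of 0.00. Calcrl, the receptor subunit for CGRP and adrenomedullin, was lower at 87.6 CPM in Tom+, against 142 CPM in Tom-, and the ratio was 0.619 (0.570 to 0.671). The other 7 were between. Calcrl was highest in Tom- in the Car3-high stromal class (377 CPM) and, among states, in state 1 (322 CPM), which is also where Cck was highest.

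The machinery that makes and removes peptides showed no member past 1.5 times. Of 19 processing enzymes 12 were measured, and 12 lay between with a median log2 ratio of 0.05. The highest was Cpe, carboxypeptidase E, at 17.2 CPM in Tom+, against 11.4 CPM in Tom- (log2 ratio 0.55), followed by Pam, the amidating enzyme that cholecystokinin needs, at 393 and 274 CPM (0.52). The lowest was Pcsk6, a proprotein convertase, at 33.3 and 40.1 CPM (-0.26). Of 17 degrading enzymes 12 were measured, and 12 lay between with a median of -0.09, from Dpp4 at 38.2 CPM in Tom+, against 48.9 CPM in Tom- (-0.35) to Prep at 19.2 and 17.7 CPM (0.11).

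Downstream, 30 of 40 cAMP genes were measured, 1 was higher and 29 lay between, with a median log2 ratio of 0.02. The higher one was Adcy7, an adenylyl cyclase, at 14.6 CPM in Tom+, against 7.72 CPM in Tom-, and the ratio was 1.89 (1.51 to 2.35). Of 18 Gq and calcium genes 11 were measured and 11 lay between, from Gna11 at 98.1 CPM in Tom+, against 107 CPM in Tom- (log2 ratio -0.13) to Itpr1 at 40.3 and 28.0 CPM (0.51). The 3 list genes past 1.5 times, Nxph1, Calcrl and Adcy7, stand against the shares of 1.12% higher and 0.838% lower over all measured genes, and nothing particular to the lists is read from them.

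**Figure D5:**
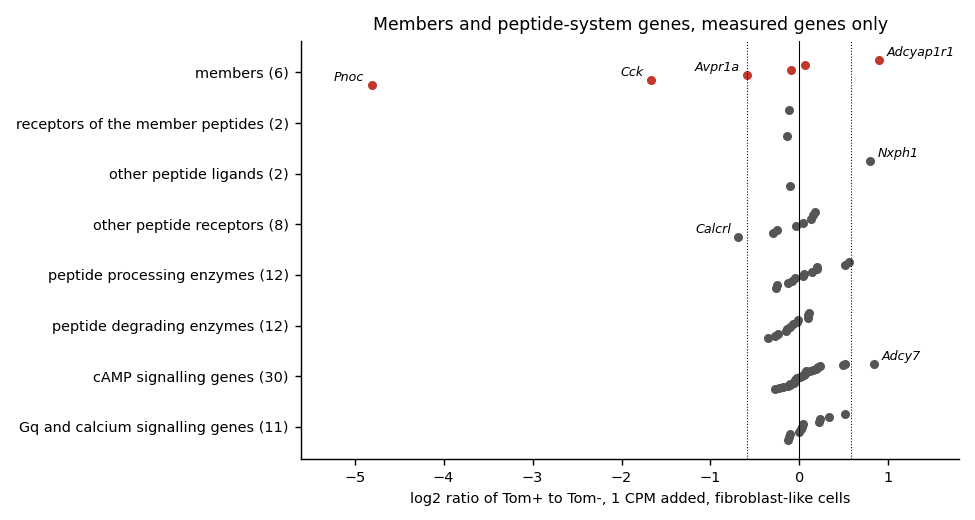
Log2 ratio of Tom+ to Tom- in fibroblast-like cells, with 1 CPM added, for the 6 measured members (red) and the measured genes of 7 related lists (grey), with the number measured in brackets. Dotted lines mark 1.5 times, and genes past them are named. Outside the members, Nxph1, Calcrl and Adcy7 lie past the lines.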

How the data were processed

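The deposited matrices hold raw UMI counts per gene and barcode, made by the authors with Cell Ranger 7.0.0 on mm10, per the submitters' processing notes, while the matrix headers name software version 3.0.2. A UMI is 1 captured molecule after PCR copies are merged. Libraries were 10x Chromium 3′, per the labels' protocols, so each gene is read near its 3′ end. Droplet data also carry free RNA in every cell.

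Cells with at least 1000 UMIs, 500 genes and under 15% mitochondrial UMIs were kept, and scrublet (0.8% expected per 1000 cells) removed 12 Tom+ and 709 Tom- predicted doublets. Scanpy 1.11.5 clustered both libraries together (2000 variable genes without the members and lists, 30 components, 15 neighbours, Leiden resolution 1, and 0.5 for states). The 24 clusters were named from 20 marker lists, by a rule that was changed after a first clustering had been seen. State 10, led by Sncg with Rgs5, Notch3 and the smooth muscle marker Myh11, was moved to the pericyte-like class after it was seen. Clusters without a clear name hold 87 Tom+ and 395 Tom- cells. Of the used cells, 195 Tom+ and 806 Tom- lie near the border between 2 marker scores.

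Counts were summed per class or state and library and given as CPM, counts scaled to a common library total. Sums have exact Poisson, shares Clopper-Pearson and ratios exact conditional binomial 95% intervals, for counting error only. A count of 0 is given the limit of 3 counts. With 1 library per group no test was made. Log2 ratios add 1 CPM to each level. For detection, cells were thinned to 2000 UMIs a depth that 705 of the 783 fibroblast-like cells reached in Tom+ and 3935 of the 4116 in Tom-. Members, lists and markers were chosen with earlier results of these data known. Named are the members, each list's genes past 1.5 times or else its highest and lowest, the 3 most similar profiles per member, and leading genes. For Avpr1a 1 of the 3 is not reported here. Ratios and intervals were tested on simulated counts. Alternatives covered filters, classes, scaling (TMM, edgeR 4.0.16), thinning and shared barcodes.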

Additional observations from a re-analysis of the deposited data

Results flagged for a closer look

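Npy1r went different ways in different fibroblast states. The ratio of Tom+ to Tom- was 1.13 in state 0, 1.27 in state 1 and 1.12 in state 3, with intervals above 1, and 0.155 in state 9, with an interval below 1. In state 9 Tom+ had 2 UMIs in 63 cells and Tom- 51 UMIs in 203 cells. Its Tom- level of 14.3 CPM was close to that of Tom- endothelial-like (15.5 CPM) and lymphatic endothelial-like cells (15.0 CPM). Those classes were also lower in Tom+, with ratios of 0.0900 (0.0107 to 0.337) and 0.297 (0.0334 to 1.24). In mesothelial-like cells the ratio was 0.928 (0.758 to 1.13). The part of free RNA in the state 9 ratio was not tested. With 1 library per group the difference was not tested.

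Adcyap1r1 was higher in Tom+ in fibroblast-like cells, with a ratio of 1.92, and lower in Tom+ in mesothelial-like cells, with a ratio of 0.346 (0.109 to 0.841). The mesothelial-like ratio rests on 5 Tom+ and 79 Tom- UMIs. Without shared barcodes it was 0.188 (0.00469 to 1.08), from 1 Tom+ and 79 Tom- UMIs. With cells classed by marker score it was 0.441 (0.0505 to 1.78), from 2 and 24 UMIs. Each of these alternative intervals included 1. The difference between fibroblast-like and mesothelial-like cells was not tested either.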

How the results depend on the processing

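Log2 ratios of Tom+ to Tom- in fibroblast-like cells kept their direction under every alternative run for Cck (-2.14 to -1.45), Adcyap1r1 (0.77 to 1.17) and Avpr1a (-1.44 to -0.48), while those of Penk (-0.04 to 0.44), Npy1r (-0.12 to 0.16), Pnoc (-5.47 to 0.04) and Rxfp2 (-1.40 to 0.68) crossed 0. The cause of each shift below was not tested, apart from fewer cells or genes by construction. Without shared barcodes Pnoc was -5.47, Npy1r 0.041 and Rxfp2 -1.40, and 3 list genes were lower. With Car3-high cells counted in, Cck was -2.04, Penk 0.44, Npy1r 0.16, Adcyap1r1 1.11 and Avpr1a -1.34, 176 genes were higher and 206 lower, and 6 list genes lower. With cells classed by marker score, Cck was -2.14, Penk 0.33, Pnoc -4.29, Npy1r 0.058 and Avpr1a -1.44, 192 genes were higher and 202 lower, and 7 list genes lower. At Leiden resolution 0.5 Npy1r was -0.0062 and 3 list genes were lower. With the lists kept in the clustering Pnoc was -4.16 and Npy1r -0.038. With equal weight per cell Cck was -2.12, Pnoc -4.26 and Rxfp2 -0.78, 193 genes were higher and 116 lower, and 4 list genes higher and 0 lower. Thinned, Pnoc was -3.80, Npy1r 0.0069 and Adcyap1r1 1.17, 358 genes were higher and 285 lower, and 6 list genes higher and 2 lower. With 5 CPM added Pnoc was -3.24 and 60 genes were higher. With no filter 357 genes were higher and 337 lower, and 11 list genes higher and 10 lower. At 50 CPM 17 genes were higher and 23 lower, and 0 list genes higher. Some choices were made after seeing the data: without states 5 and 7 Penk was 0.24, and without the Pnoc-rich cells Pnoc turned to 0.041, while keeping shared barcodes on their larger side, or cells of at least 5000 UMIs, moved no member's ratio beyond its counting interval. Without the top cell of each library Rxfp2 was -0.78. The mean over states was -0.44 for Npy1r at state resolution 0.3 and -0.78 for Avpr1a when thinned. It turned for Rxfp2 to 0.061 with stricter cell filters and 0.023 without states 5 and 7. Over the alternatives the mean over states also crossed 0 for Cck (-0.98 to 0.48) and Adcyap1r1 (-0.30 to 0.27). The constant direction of these genes given above thus holds for the class ratio and not for the mean over states. No paired analysis was possible because each group has 1 library. Depth limits Rxfp2 and Tom+ Pnoc most, at 15 and 6 UMIs.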

Other observations

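The Pnoc-rich Tom- cells also held Tagln, an actin-binding protein of contractile cells, at 2023 CPM in 7 of 11 cells, against 55.5 CPM in the other Tom- fibroblast-like cells. Single cells held 300, 125, 56 and 39 Tagln UMIs, and the other positive cells 1 or 2. The Pnoc-rich cells held Oxtr, the oxytocin receptor, at 57.9 CPM in 5 of 11 cells, against 3.72 CPM. These cells were picked by their Pnoc count after values were seen, so the levels only describe them. The 67 Tom- erythroid-like cells held Npy1r at 81.5 CPM, Cck at 41.4 CPM and Avpr1a at 30.0 CPM. A few cells carried most of it: 10 cells held 107 of the 122 Npy1r UMIs, and 10 cells held 59 of the 62 Cck UMIs. Without shared barcodes, 10 of the 65 cells held 41 of the 44 Avpr1a UMIs. The median depth of the 67 cells was 23300 UMIs, against 12773 UMIs over the used Tom- cells.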
